A study of Mus musculus with 38 samples.

Results

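The 10 genes described here write, copy, erase or protect DNA methylation in mouse embryonic stem cells (mESCs): Dnmt1, Uhrf1, Dnmt3a, Dnmt3b, Dnmt3l, Tet1, Tet2, Tet3, Zfp57 and Trim28. They were taken by name from the 21911 protein-coding genes that the GENCODE M21 annotation places on chromosomes 1 to 19, X and Y of GRCm38. For each gene, the gene body with 20 kb on either side formed its window, and every call of the 30 ChIP-seq lists that touched a window was collected. The 10 windows were 49.473 to 148.437 kb long.

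Methylation of cytosines in CG dinucleotides is copied to the new strand after replication by DNMT1, which UHRF1 brings to hemimethylated DNA, and is laid down afresh by DNMT3A and DNMT3B with the help of DNMT3L, a relative without catalytic activity of its own. The TET enzymes oxidise 5-methylcytosine, a step towards its removal. At imprinted regions, where only one parental copy is methylated, ZFP57 binds the methylated copy and brings TRIM28 (KAP1), which recruits writers of H3K9me3 and DNA methylation. H3K4me3 marks active or poised promoters, H3K27ac active promoters and enhancers, H3K4me1 enhancers, H3K27me3 Polycomb-repressed chromatin, and H3K9me3 heterochromatin. DNA methylation is not analysed here, so the values below describe chromatin at the genes and not the state of any imprint.

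The study asked how the loss of IκBα, the NF-κB inhibitor encoded by Nfkbia, changes the chromatin of pluripotent cells. All samples were ES-E14TG2a mESCs kept in medium with serum and LIF and taken at 0 h. IκBα-WT (WT) cells were clones that had received scrambled, non-targeting guide RNAs, and IκBα-KO (KO) cells were clones edited with a pair of guide RNAs against the first exon of Nfkbia. Each of the 5 histone marks was profiled in 3 WT and 3 KO samples, described in the study's methods as independent clones, and the other 8 of the 38 samples were inputs. The labels name no other allele or agent, and a clone can carry differences of its own.

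The H3K4me3 lists held 21836 to 26806 peaks per library, with a fold enrichment over input and no counts. In the other lists, 8910890 to 35951506 ChIP reads per library lay in called regions. The lists themselves differed in size between genotypes. H3K4me3 calls covered 17.2 to 19.3 Mb in WT and 19.02 to 22.13 Mb in KO, H3K27ac calls 380 to 393 Mb against 411 to 419 Mb, H3K27me3 calls 214 to 259 Mb against 267 to 278 Mb, and H3K9me3 calls 202 to 207 Mb against 172 to 186 Mb. Within 1 kb of the Nfkbia start, H3K4me3 calls covered 1108, 1168 and 1300 bp in WT and 0, 590 and 769 bp in KO, so that the KO libraries were lower in the targeted gene without overlap. Of 8 embryonic stem cell markers, 6 carried H3K4me3 in all 6 libraries and 1 in none, while all 5 fibroblast, all 4 neural and all 5 primitive endoderm markers carried H3K27me3 in all 6 libraries, as did 2 of the 8 stem cell markers. H3K4me3 was also found in all 6 libraries at 3 of the fibroblast, 3 of the neural and 2 of the primitive endoderm markers, and H3K27ac at 7 stem cell, 2 fibroblast, 3 neural and 3 primitive endoderm markers.

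These 6 stretches of 300 bases are shown because the differences described below lie on or beside them. The first 5 are promoters from RefSeq on GRCm38.p6, from 250 bases before a start of transcription to 50 bases from it onwards, and the last is the middle of a peak inside an intron of Tet2, read from the same build. Capitals mark CG dinucleotides, the substrate of the enzymes themselves.
Dnmt3b, chr2:153649199-153649498, plus strand: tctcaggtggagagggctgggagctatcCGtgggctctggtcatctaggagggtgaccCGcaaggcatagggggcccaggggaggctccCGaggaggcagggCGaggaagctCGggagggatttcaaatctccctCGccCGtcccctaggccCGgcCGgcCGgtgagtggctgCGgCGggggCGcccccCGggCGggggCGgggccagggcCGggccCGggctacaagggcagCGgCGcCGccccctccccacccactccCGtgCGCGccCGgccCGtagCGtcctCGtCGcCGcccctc
Dnmt3l, first start, chr10:78042037-78042336, plus strand: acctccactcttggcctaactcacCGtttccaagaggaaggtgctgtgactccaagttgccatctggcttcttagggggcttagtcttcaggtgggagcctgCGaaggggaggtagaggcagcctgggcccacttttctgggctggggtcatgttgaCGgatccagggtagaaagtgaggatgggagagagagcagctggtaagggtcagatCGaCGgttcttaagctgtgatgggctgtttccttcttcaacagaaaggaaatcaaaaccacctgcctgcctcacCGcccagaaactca
Dnmt3l, the next start, chr10:78049592-78049891, plus strand: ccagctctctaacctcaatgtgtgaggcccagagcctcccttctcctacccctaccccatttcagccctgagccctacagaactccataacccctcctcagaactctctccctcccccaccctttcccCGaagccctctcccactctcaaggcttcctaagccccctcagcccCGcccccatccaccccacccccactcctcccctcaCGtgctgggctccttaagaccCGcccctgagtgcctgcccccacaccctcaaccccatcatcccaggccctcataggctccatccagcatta
Tet1, chr10:62887275-62887574, minus strand: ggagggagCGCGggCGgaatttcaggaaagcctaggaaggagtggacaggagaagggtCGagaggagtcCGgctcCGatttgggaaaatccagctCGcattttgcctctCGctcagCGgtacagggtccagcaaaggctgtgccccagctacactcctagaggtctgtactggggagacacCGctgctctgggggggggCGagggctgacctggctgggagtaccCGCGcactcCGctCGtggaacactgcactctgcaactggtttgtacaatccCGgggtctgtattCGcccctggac
Zfp57, chr17:37003416-37003715, plus strand: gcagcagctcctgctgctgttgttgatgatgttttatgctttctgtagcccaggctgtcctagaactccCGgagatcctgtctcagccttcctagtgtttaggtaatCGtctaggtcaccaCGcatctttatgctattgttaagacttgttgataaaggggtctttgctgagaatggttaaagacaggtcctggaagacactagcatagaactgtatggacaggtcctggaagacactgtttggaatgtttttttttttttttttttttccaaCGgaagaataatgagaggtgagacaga
Tet2, middle of the intronic H3K4me3 peak, chr3:133517304-133517603, minus strand: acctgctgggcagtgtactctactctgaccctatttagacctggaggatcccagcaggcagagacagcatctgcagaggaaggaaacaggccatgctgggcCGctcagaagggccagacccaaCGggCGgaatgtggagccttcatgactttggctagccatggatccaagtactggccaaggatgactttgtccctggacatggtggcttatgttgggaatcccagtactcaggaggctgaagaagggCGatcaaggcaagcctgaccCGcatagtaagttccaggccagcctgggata

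The promoters differed in CG content. The Dnmt3b promoter held 30 CG and the Tet1 promoter 17, whereas those of Dnmt3l held 6 and 4 and that of Zfp57 held 4. Over the 19 RefSeq starts of the 10 genes the median was 17 CG per 300 bases, with a range of 2 to 57, beside a median of 7 and quartiles of 3 and 20 over 32851 promoters of the genome. The most CG lay at the start of Tet2, with 57. The letters TGCCGC, the core bound by ZFP57 where its CG is methylated, occurred on either strand in 4 of the 19 member promoters (21.1%) and in 11.6% of all promoters. The κB consensus, the motif of NF-κB dimers, searched on both strands, occurred in 2 of the 19 (10.5%) and in 8.46% of all, with 3 matches that may overlap in the Dnmt3b promoter and 1 in that of Trim28. The intronic Tet2 sequence held 1 κB match and no TGCCGC. These matches are descriptions of letters and not of binding.

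The sequence covered by calls was compared first, because every list gives it. With 3 against 3 libraries the exact two-sided permutation test over samples reaches 0.1 at best, so groups that do not overlap all have p = 0.1 and none can pass 0.05. In bulk chromatin, a change in every cell and a change in the share of cells that carry a mark cannot be told apart. For H3K4me3, 7 of 10 member windows were covered more in every KO than in any WT library and 0 of 10 less, where 26.9% of 16205 gene windows with a call were higher and 6.89% lower. The median difference between KO and WT means was 3692 bp over the members and 166 bp over all these windows. The windows of all genes were not matched to the members in length or in neighbouring promoters, with which covered sequence can grow. For H3K27ac, 3 of 10 windows were higher and 1 lower (all genes, 25.9% and 9.20%). For H3K4me1, 1 was higher and 3 lower (12.7% and 18.1%). For H3K27me3, 2 were higher and 2 lower (12.9% and 7.92%). The 10 include Tet1 and Zfp57, which had no H3K27me3 call in any library, while the shares count only windows with a call. For H3K9me3, 1 was higher and 2 lower (4.28% and 13.5%). Outside H3K4me3, each count differed by less than 2 genes from the share of all genes applied to 10. For H3K4me3, the larger KO lists moved with the result. When each library was reduced to the same number of top-ranked peaks, 6 of 10 H3K4me3 windows were higher in KO without overlap (23.9% of all genes in that setting).

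**Figure D1:**
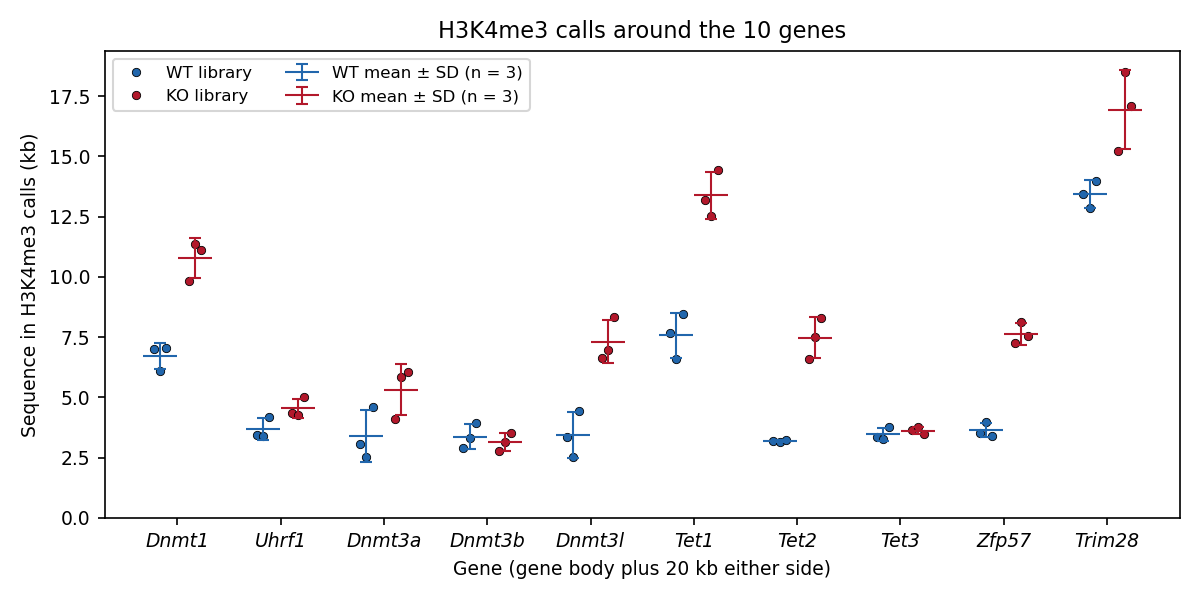
Sequence covered by H3K4me3 calls (kb) in the window of each of the 10 genes, one point per library, with WT and KO libraries apart and the bar at the mean of 3. KO points lie above all WT points for Dnmt1, Uhrf1, Dnmt3l, Tet1, Tet2, Zfp57 and Trim28, and overlap them for Dnmt3a, Dnmt3b and Tet3.

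Promoter calls were few by the GENCODE definition, 5 kb before to 100 bp after the 5′ end of the gene. By that definition Dnmt3l alone was separated, upwards, for H3K4me3 (1 of 10 members, 17.9% of all promoters with a call) and for H3K27me3 (1 of 10, 5.06%), and no member was separated for the other 3 marks. The 10 include members with no H3K27me3 call at all, which the shares leave out. The GENCODE 5′ end lies 25038 bp before the RefSeq start in Trim28, 21672 bp in Tet1 and 17406 bp in Tet3, away from their start peaks. The start peaks tested at Dnmt1, Dnmt3a and Zfp57 also lay outside the promoter so defined. A second definition, 1 kb on either side of every RefSeq start, was added after the data had been seen. At these starts, H3K4me3 coverage was higher in KO without overlap in 6 of 10 members, namely Dnmt1, Dnmt3l, Tet1, Tet2, Tet3 and Zfp57 (18.4% of all), H3K27me3 was higher in 1, Dnmt3l (3.73%), and H3K4me1 was lower in 1, Zfp57 (8.42%).

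Levels were then compared in regions merged over the 6 libraries of a mark and called in all of them. The test for H3K4me3 was limma on the log2 fold enrichment over input of each merged region, for each library the highest among its calls there. For the counted marks it was edgeR's quasi-likelihood test on reads per region, adjusted for the length each library had called. Both were adjusted by Benjamini-Hochberg over all regions of the mark. Simulated log2 changes of 0.5 were mostly missed in H3K4me3 and H3K9me3, so a region of these marks that did not pass is not shown to be unchanged. Among 36 member regions of H3K4me3, 5 were higher and 3 lower in KO (9.82% and 9.75% of all 14907), with a median log2 change of 0.05. Among 29 of H3K27ac, 8 were higher and 2 lower (8.19% and 4.56% of all). Among 29 of H3K4me1, 1 was higher and 1 lower (4.00% and 1.64%). For H3K27me3 0 of 10 member regions passed in edgeR (2.73% of all in either direction), with 4 at an unadjusted p under 0.05, a smallest adjusted p of 0.193, and 0 in DESeq2. For H3K9me3 0 of 6 passed in edgeR (0.435% of all), with 0 at an unadjusted p under 0.05, a smallest adjusted p of 0.612, and 0 in DESeq2. The H3K27ac rises over Zfp57, Dnmt1 and Uhrf1 were in merged domains of 149.0, 139.8 and 135.8 kb. These domains also reach promoters of neighbouring genes, so the rises are not placed at the members. Single H3K27ac calls had median widths of 4200 to 5600 bp per library, and the shares make no allowance for length. The H3K27ac split depended on scaling, for the members and for all regions. It was 6 up and 4 down of 29 with no TMM factors (4.96% and 9.27% of all), and 2 and 9 of 29 with TMM factors from counts not adjusted for length (3.00% and 18.5%), which moved the median of all H3K27ac regions to −0.13 on the log2 scale. In regions of like length, of which the members had 13, it was 5 and 6 (26.4% and 26.5%). The H3K4me1 split was 1 and 3 of 29 with no TMM factors (2.93% and 2.64%), 3 and 1 of 29 with TMM factors from unadjusted counts (7.46% and 0.778%), and 1 and 5 of the 18 regions of like length (23.4% and 20.0%).

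**Figure D2:**
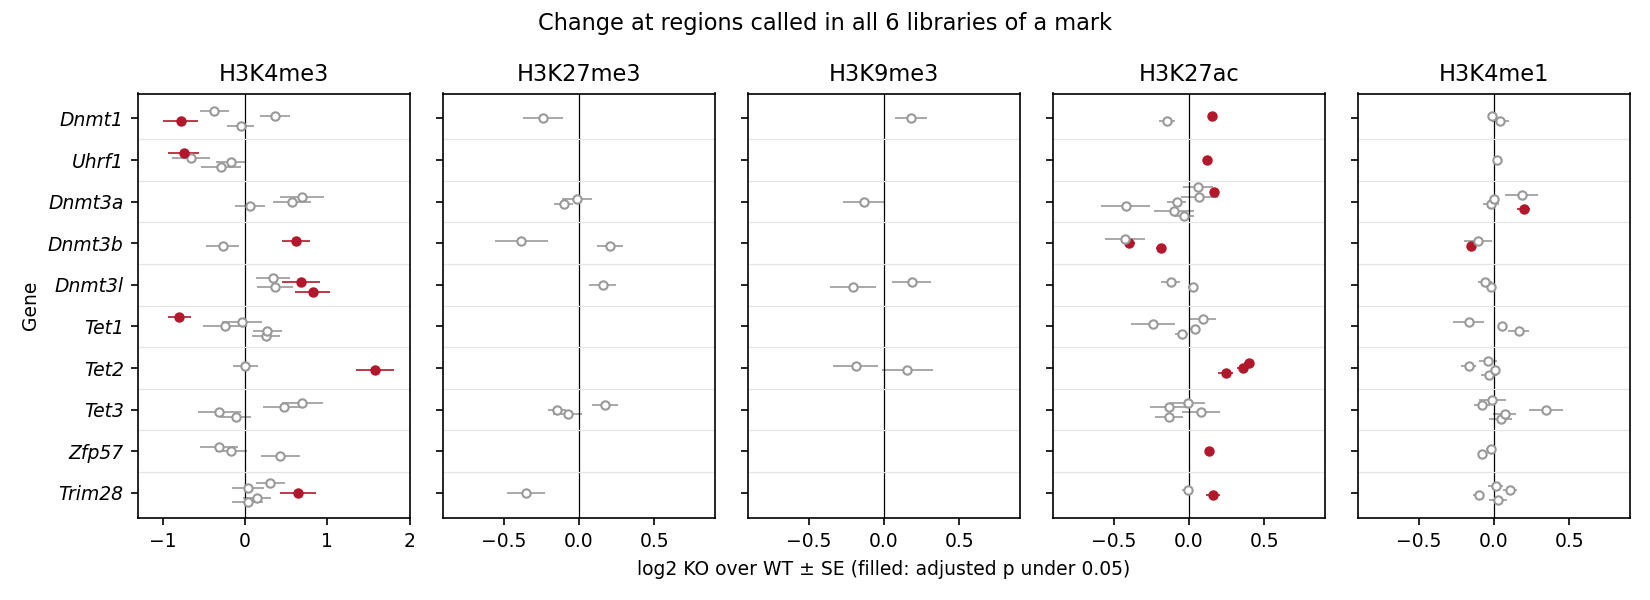
Log2 change (KO over WT) of every merged region that touches a member window and was tested, by gene and mark, with filled points where the adjusted p was under 0.05. The largest rise is the intronic H3K4me3 region of Tet2 at 1.58, and Dnmt3b has H3K27ac regions that fell beside a start peak of H3K4me3 that rose.

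Dnmt1, the maintenance methyltransferase (chr9:20907209-20959888, minus strand), had more H3K4me3 coverage in KO over its window. H3K4me3 calls covered 7005, 6110 and 7067 bp of its window in WT and 9821, 11377 and 11115 bp in KO, a ratio of means of 1.60. Every KO library was above every WT library, but the size depended on the flank: the difference of 4044 bp between the means was 770 bp with flanks of 10 kb and 5383 bp with flanks of 50 kb. Part of the difference lay at the promoters of neighbours. Calls in the region at Ppan covered 2556, 1958 and 2687 bp in WT and 3951, 4260 and 4460 bp in KO. Those in the region at S1pr2 covered 1790, 1789 and 1536 bp in WT and 2132, 2178 and 2438 bp in KO. Around the starts of Dnmt1 the coverage was 1122, 1179 and 1030 bp in WT against 1241, 1512 and 1285 bp in KO, and the highest fold enrichment there was 9.26, 11.2 and 10.5 against 12.5, 14.5 and 14.9. The start peak, tested on the same enrichment after each library had been centred, did not pass (log2 change 0.36 ± 0.18 SE, limma adjusted p = 0.166). A peak downstream of the gene, 54.7 kb from the nearest RefSeq start, lay at the promoter of the neighbour Eif3g (chr9:20897102-20898702). Its enrichments were 14.6, 13.1 and 17.6 in WT and 8.12, 7.03 and 13.6 in KO. It fell by 0.78 ± 0.21 (limma adjusted p = 0.0147), although the highest KO value exceeded the lowest WT value. It lost the call without WT3, KO1 or KO2, with an adjusted p of up to 0.0747. Without KO2, the change was −0.58.

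The H3K27ac domain over the start of Dnmt1 (chr9:20900601-21040400) ran from the gene into sequence beyond the window. Its CPM, reads scaled to library size and here adjusted for the length called, were 490, 495 and 487 in WT and 542, 551 and 547 in KO, a log2 change of 0.16 ± 0.02 (edgeR adjusted p = 0.000149). The groups did not overlap, but the change was 0.03 (adjusted p = 0.334) with TMM factors from unadjusted counts. H3K4me1 covered slightly less of the window, 86888, 89488 and 88680 bp in WT and 86480, 83480 and 83880 bp in KO. H3K27me3 coverage was small in every library and overlapped, 2600 to 4800 bp in WT and 2800 to 4800 bp in KO, as did H3K9me3 with 8000 to 21000 bp against 3400 to 13400 bp.

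Uhrf1, which encodes the reader of hemimethylated DNA (chr17:56303321-56323486, plus strand), showed a smaller H3K4me3 difference. Calls covered 3429, 3411 and 4196 bp of its window in WT and 4351, 4275 and 5013 bp in KO, so that the lowest KO value was just above the highest WT value. The difference of 868 bp between the means was 91.3 bp with flanks of 10 kb and 244 bp with the same number of top-ranked calls. It lay outside the start: around the RefSeq starts the coverage overlapped, with 1887, 1724 and 1959 bp against 1904, 1940 and 1977 bp, and the start peak had a log2 change of −0.18 ± 0.17 (limma adjusted p = 0.492). A peak downstream of the gene, 21.9 kb from the nearest RefSeq start, lay at the promoter of Kdm4b (chr17:56326005-56326459). It had enrichments of 15.8, 12.4 and 14.0 in WT and 7.63, 9.39 and 9.44 in KO, and fell by 0.75 ± 0.19 (limma adjusted p = 0.00875). A region of 326 bp further downstream was called in the 3 KO libraries and in no WT library. The H3K27ac domain of 135.8 kb that contains Uhrf1 passed the test at 0.12 ± 0.02 (edgeR adjusted p = 0.00523), but its log2 change was near 0 in regions of like length (−0.0079) and with TMM factors from unadjusted counts (−0.0040). Uhrf1 was not separated for H3K27me3, with 1400, 0 and 4000 bp in WT against 1600, 7400 and 4400 bp in KO, nor for H3K9me3, where the calls of WT (5600, 13200 and 11800 bp) had a counterpart in KO3 alone (14400 bp).

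Dnmt3a, one of the pair of de novo methyltransferases (chr12:3806007-3914443, plus strand), had broad H3K27me3 in all libraries upstream and over the first part of the gene. H3K27me3 calls covered 47400, 49794 and 47000 bp of its window in WT and 37394, 45194 and 38000 bp in KO, less in each KO than in any WT library. The reads per kb of called sequence hardly moved, 38.0, 36.1 and 36.7 in WT against 37.3, 35.7 and 36.8 in KO. The 40.8 kb region over the first starts had a log2 change of −0.10 ± 0.06 and did not pass (edgeR adjusted p = 0.496). This region and that of Tet3 were the only 2 member regions of H3K27me3 of like length in all libraries, and in that setting both were called as falls (15.8% of all 2025 such regions rose and 19.3% fell), here by 0.13 (edgeR adjusted p = 0.0244). H3K27ac covered more of the window, 82394, 93994 and 98794 bp in WT against 104594, 103794 and 117994 bp in KO.

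Within Dnmt3a the H3K27ac regions did not move as one. The 52.8 kb region over the downstream start (chr12:3864201-3917000) had a log2 change of 0.16 ± 0.03 (edgeR adjusted p = 0.00145), which became 0.04 with TMM factors from unadjusted counts (adjusted p = 0.378). That over the first starts had −0.42 ± 0.16 and did not pass (adjusted p = 0.124). An upstream H3K4me1 region (chr12:3770001-3797600) had 46.0, 46.0 and 50.1 length-adjusted CPM in WT and 55.3, 52.8 and 54.6 in KO, a rise of 0.20 ± 0.04 (edgeR adjusted p = 0.0194). This call was lost without WT1, WT2, KO1 or KO3, with adjusted p of up to 0.0819. H3K4me3 coverage overlapped between the groups, 3085, 2525 and 4605 bp in WT against 4103, 5832 and 6036 bp in KO. Both peaks at the downstream start, the promoter used by the shorter form of the enzyme, had positive log2 changes that did not pass, 0.57 ± 0.23 and 0.69 ± 0.27 (limma adjusted p = 0.0831 and 0.0761), and 1 intronic region of 517 bp was called in the 3 KO libraries alone.

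Dnmt3b, the other de novo methyltransferase (chr2:153649450-153687730, plus strand), was a gene at which marks moved in different directions. The H3K4me3 peak at its start (chr2:153649133-153651470), over the promoter shown above, had fold enrichments of 11.9, 13.8 and 10.9 in WT and 17.3, 20.7 and 21.01 in KO. All KO libraries were higher, and the log2 change of 0.62 ± 0.17 passed (limma adjusted p = 0.0170), a call that leaving out WT3, KO2 or KO3 ended, with adjusted p of up to 0.0755. The peak grew in height and not in breadth, since window coverage overlapped (3374 ± 525 bp against 3155 ± 377 bp, SD, n = 3).

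H3K27ac at Dnmt3b fell. The region over the start and the first part of the gene (chr2:153635801-153674000) had 131, 136 and 140 length-adjusted CPM in WT and 104.9, 102.1 and 102.8 in KO, so that all KO libraries were lower, by 0.40 ± 0.03 on the log2 scale (a fold of 0.760, edgeR adjusted p = 1.45e-05). The region upstream, which reaches the promoter of Commd7 (chr2:153589801-153635000), had 155, 156 and 159 in WT and 138, 138 and 137 in KO, with a log2 change of −0.19 ± 0.03 (edgeR adjusted p = 0.000781). Both calls held under all 14 settings that were run. Input reads differed little in these regions, with a log2 ratio of KO to WT of −0.05 over the start and 0.08 upstream.

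H3K4me1 fell at Dnmt3b too, by less. The region of 82.8 kb that spans the start (chr2:153591201-153674000) had 234, 234 and 237 length-adjusted CPM in WT and 214, 211 and 211 in KO, without overlap, and a log2 change of −0.15 ± 0.02 (edgeR adjusted p = 0.000106, called under all 14 settings). Over the window, H3K27ac calls held 80.4, 85.9 and 91.4 reads per kb in WT and 69.7, 66.9 and 59.3 in KO, and H3K4me1 calls 96.7, 96.3 and 95.6 against 82.1, 79.8 and 81.4.

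The repressive marks at Dnmt3b differed in opposite directions. H3K27me3 covered 13600, 13000 and 17930 bp of the window in WT and 19130, 20400 and 23800 bp in KO, and the start itself was covered in all 6 libraries. The H3K27me3 region over the start, which reaches the promoter of Commd7, had a log2 change of 0.20 ± 0.09 after adjustment for called length. It did not pass (edgeR adjusted p = 0.273), beside a log2 ratio of input reads of −0.30 there. Its unadjusted reads were 394, 416 and 453 in WT and 629, 737 and 743 in KO. The called lengths were 11600, 10800 and 13200 bp in WT and 14400, 17800 and 19200 bp in KO. H3K9me3 calls covered 11200, 8600 and 4200 bp in WT and 0 bp in each KO library. The 3 WT calls lay in the gene body but not at one place: that of WT1 spanned chr2:153672201-153683400 with 285 reads, that of WT2 chr2:153670001-153678600 with 239 and that of WT3 chr2:153664401-153668600 with 86, so WT3 shared no sequence with the other two. With the same number of top-ranked calls per library none of this H3K9me3 remained in either genotype.

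**Figure D3:**
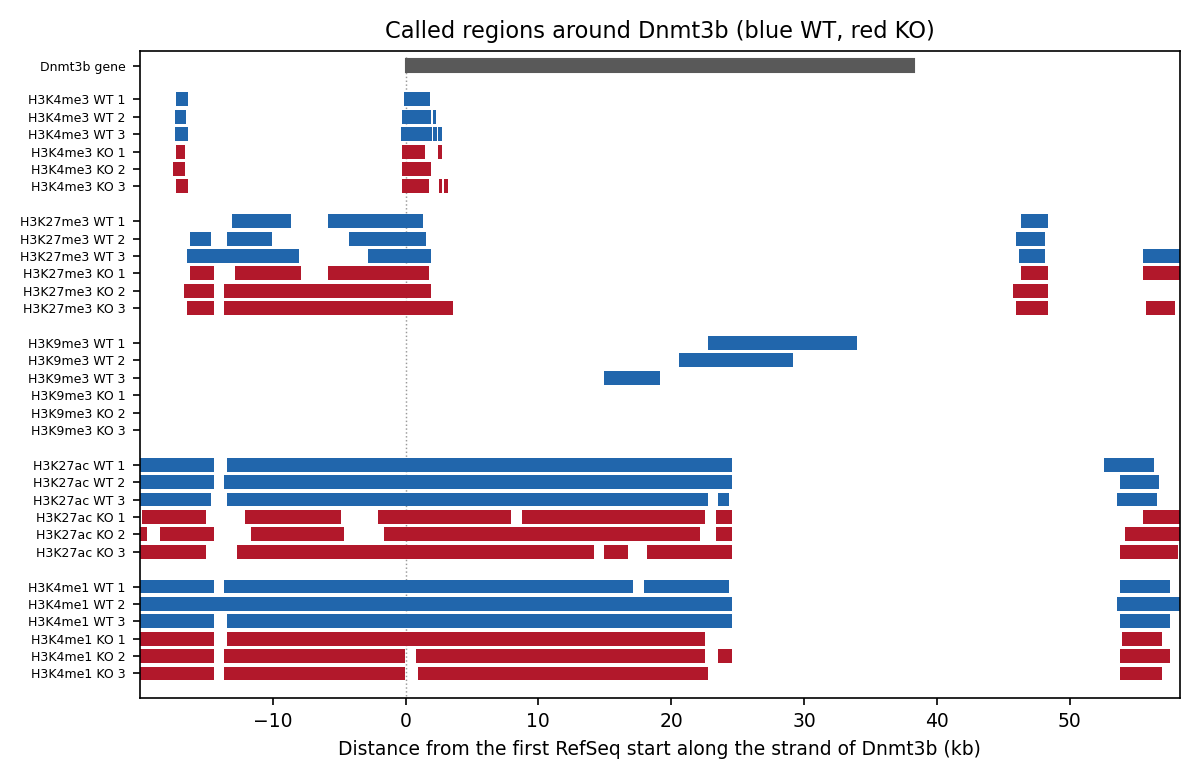
Calls of the 5 marks in the window of Dnmt3b, one line per library, as distance from the RefSeq start in kb. H3K9me3 calls appear in the 3 WT libraries alone, at places that differ, while H3K27me3 calls around the start are broader in KO, with 19130 to 23800 bp against 13000 to 17930 bp over the window.

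Dnmt3l, the cofactor of the de novo enzymes (chr10:78041947-78063622, plus strand), gained both H3K4me3 and H3K27me3 around its first start. H3K4me3 calls covered 3349, 2525 and 4430 bp of the window in WT and 6638, 6951 and 8329 bp in KO, a ratio of means of 2.13 with no overlap. In the promoter alone they covered 79, 385 and 313 bp in WT and 1108, 1026 and 1312 bp in KO. The merged region at −4.87 kb from the first start (chr10:78036578-78038258) had fold enrichments of 4.36, 4.54 and 5.00 in WT and 7.30, 8.95 and 9.80 in KO. Its log2 change was 0.82 ± 0.21 (limma adjusted p = 0.0119, called under all 11 settings). Calls in it covered 225, 385 and 567 bp in WT and 1380, 1199 and 1561 bp in KO. The WT calls were not at one place, and that of WT2 shared no sequence with those of WT1 or WT3. A second merged region, 2.41 kb after the next start (chr10:78051124-78053373), had enrichments of 5.33, 3.62 and 4.35 in WT against 6.22, 7.23 and 8.96 in KO. This second region had a log2 change of 0.68 ± 0.23 (limma adjusted p = 0.0431). It lost the call when any library other than WT1 was left out, with adjusted p of up to 0.150.

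H3K27me3 was called over the first start of Dnmt3l in all KO libraries and in no WT library. Within 1 kb of that start the calls covered 0 bp in each WT library and 2001 bp, the whole interval, in each KO library. The 3 KO calls were 2800, 2400 and 3800 bp long with 88, 76 and 96 ChIP reads, so they are small islands beside the domains of Dnmt3a and Tet3. Their union (chr10:78039601-78043400) was the only one of 25 merged H3K27me3 regions in member windows that all KO and no WT libraries had (4.00% of the members' regions and 1.80% of all 58154), and over the window the coverage was 0, 1422 and 0 bp in WT and 4222, 5222 and 4622 bp in KO. No level can be given for WT, because the lists hold reads of called regions only.

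**Figure D4:**
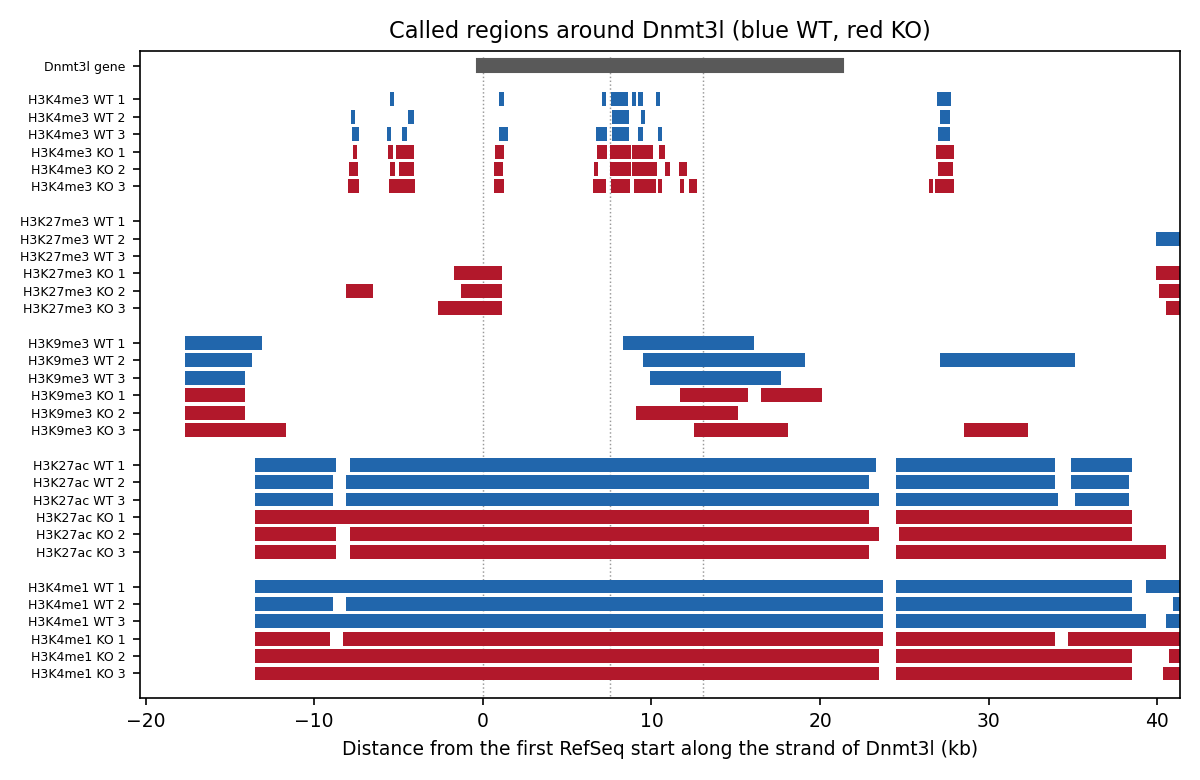
Calls of the 5 marks in the window of Dnmt3l, one line per library, as distance from the first RefSeq start in kb. The H3K27me3 calls of 2400 to 3800 bp over the first start are present in the 3 KO libraries and in none of the WT libraries.

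The other marks at Dnmt3l were alike in both genotypes or differed little. H3K27ac covered 49000, 48400 and 49000 bp in WT and 50400, 50000 and 51600 bp in KO, slightly more in each KO library, and the region over the starts had a log2 change of 0.03 ± 0.03 (edgeR adjusted p = 0.662). H3K9me3 covered 9600 to 15400 bp in KO and 11400 to 21600 bp in WT, including a region of 11.8 kb in the gene body (0.18 ± 0.13, edgeR adjusted p = 0.686).

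Tet1, which encodes a TET enzyme abundant in mESCs (chr10:62804570-62908996, minus strand), gained many small H3K4me3 peaks. The window held 10, 8 and 10 calls in WT and 19, 17 and 16 in KO, which covered 7673, 6579 and 8460 bp against 13187, 12542 and 14444 bp. Every KO library was far above every WT library in both measures. Of the 8 merged H3K4me3 regions in member windows that all KO and no WT libraries had, 4 lay in Tet1, 3 of them in introns and 1 touching an exon, with lengths of 492 to 718 bp. These 8 were 7.69% of the 104 merged regions in member windows, where 3.12% of all 31237 were of this kind, and none of the 104 was found in all WT and no KO libraries (0.743% of all). The larger KO lists move with this count, and their part in it was not tested.

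At the start of Tet1, over the promoter shown above, H3K4me3 covered 1618 to 1673 bp in WT against 2001, 1784 and 2001 bp in KO, and the highest fold enrichment was 10.3, 9.18 and 11.1 against 12.1, 13.3 and 13.3. The groups did not overlap in either measure, while the log2 change of this enrichment, after each library had been centred, did not pass (0.27 ± 0.18, limma adjusted p = 0.292). The peak that did pass in this window lies at the promoter of the neighbour Slc25a16, at −33.3 kb from the Tet1 start (chr10:62919915-62921340), with enrichments of 27.9, 20.6 and 28.6 in WT and 14.6, 14.5 and 17.2 in KO and a log2 change of −0.80 ± 0.14 (limma adjusted p = 0.00105, called under all 11 settings). No H3K27me3 was called in the Tet1 window in any library, H3K27ac covered nearly all of it (a log2 change of 0.04 ± 0.03 over the gene, edgeR adjusted p = 0.458), and H3K9me3 coverage overlapped (11000 to 23400 bp in WT, 9200 to 23831 bp in KO).

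Tet2 (chr3:133463679-133545139, minus strand), which lacks the CXXC DNA-binding domain that TET1 and TET3 carry, had the largest ratio of H3K4me3 coverage of the 10 genes and the H3K27ac region with the largest rise. H3K4me3 calls covered 3173, 3167 and 3239 bp of its window in WT and 6608, 7500 and 8312 bp in KO, a ratio of means of 2.34. The WT libraries were nearly equal and every KO library was far above them. The excess lay inside the gene. At the start, which holds 57 CG in 300 bases, the peak had a log2 change of 0.00 ± 0.15 (limma adjusted p = 0.9998).

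The excess centred on an intronic peak 27.03 kb into the gene (chr3:133516110-133518618), the middle of which is shown above. Its fold enrichment was 3.72, 3.05 and 3.16 in WT and 11.5, 11.6 and 8.37 in KO, a fold of 2.98 with all KO libraries far above all WT libraries. The log2 change of 1.58 ± 0.23 had a limma adjusted p of 0.000356 and passed under all 11 settings. The peak also widened, from 517, 344 and 387 bp to 2380, 2235 and 2345 bp. Its summits in the 3 KO libraries lay within 139 bp. A further 2 regions beside it were called in all KO and no WT libraries, one of 688 bp in the intron 29.0 kb from the start and one of 1401 bp that touches an exon 30.3 kb from it.

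H3K27ac rose along the whole of Tet2. Over the start (chr3:133529601-133561200) the length-adjusted CPM were 138, 139 and 140 in WT and 183, 178 and 189 in KO, a log2 change of 0.40 ± 0.03 (a fold of 1.32, edgeR adjusted p = 4.28e-06). In the region that contains the intronic H3K4me3 peak (chr3:133496801-133528400) they were 170, 177 and 167 against 227, 219 and 210, a change of 0.35 ± 0.03 (edgeR adjusted p = 3.21e-05). In the last part of the gene (chr3:133458601-133492000) they were 60.5, 62.7 and 56.4 against 70.1, 69.6 and 72.7, a change of 0.24 ± 0.05 (edgeR adjusted p = 0.00624). The KO libraries were above the WT libraries in each of the 3 regions. The log2 ratio of KO to WT input reads was 0.08 over the start, 0.13 in the region with the intronic peak and 0.13 in the last part. Its part in these rises was not tested. The first and second calls held under all 14 settings, and the last was lost with TMM factors from unadjusted counts (0.12, adjusted p = 0.144).

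H3K4me1 at Tet2 was called over more sequence but not at a higher density within calls. It covered 75800, 73000 and 73200 bp of the window in WT and 88200, 90400 and 89400 bp in KO, while the reads per kb of called sequence were 81.9, 86.5 and 84.9 in WT and 76.6, 76.1 and 74.6 in KO. Coverage was thus higher and density lower in KO, each without overlap, and none of the 4 H3K4me1 regions tested there passed (log2 changes from −0.17 to 0.01). H3K9me3 covered 11000, 11800 and 17400 bp in WT and 20600, 22200 and 21200 bp in KO, the one member window in which H3K9me3 coverage was higher in every KO library, although the KO lists were smaller. With an FDR under 0.01 or flanks of 50 kb, no member window was higher without overlap. Neither tested H3K9me3 region passed (0.15 ± 0.17 and −0.19 ± 0.15). H3K27me3 calls were present in WT2 and WT3 alone, with 3800 and 3000 bp.

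**Figure D5:**
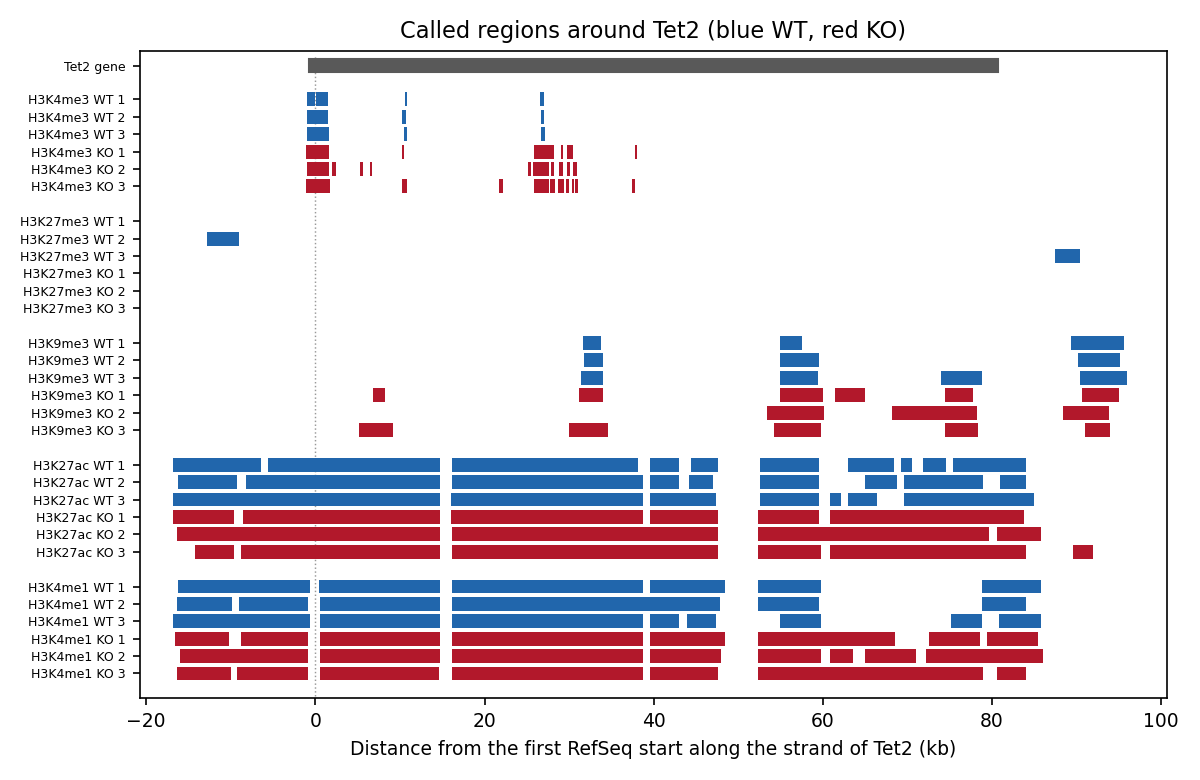
Calls of the 5 marks in the window of Tet2, one line per library, as distance from the RefSeq start in kb. The H3K4me3 calls about 27.03 kb into the gene are 344 to 517 bp wide in WT and 2235 to 2380 bp in KO, and H3K9me3 calls cover more sequence in KO.

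Tet3 (chr6:83362373-83459084, minus strand) carried the broadest H3K27me3 of the 10 genes. It covered 85400, 88800 and 95284 bp of the window in WT and 88800, 85800 and 86084 bp in KO, which overlap. The reads per kb of called sequence were 63.7, 64.9 and 63.0 in WT and 59.2, 61.3 and 57.4 in KO, lower in each KO library, yet the 73.8 kb region over the start did not pass (−0.15 ± 0.06, edgeR adjusted p = 0.283). Among regions of like length it was called as a fall of 0.22 (edgeR adjusted p = 1.53e-07). H3K4me3 coverage around the start was 875, 929 and 843 bp in WT and 1013, 1082 and 1000 bp in KO, a narrow gap, and the start peak had a log2 change of −0.31 ± 0.26 (limma adjusted p = 0.423). H3K9me3 covered 6800, 6800 and 5800 bp in WT and 4600, 0 and 0 bp in KO, a difference that was 0 bp with the same number of top-ranked calls. A 3400 bp H3K4me1 region downstream of the gene was called in all KO and no WT libraries, the only such region of 34 (2.94%, beside 1.49% of all 69191).

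Zfp57, the imprint-protecting zinc finger protein (chr17:37001163-37010635, plus strand), sits in a window that H3K27ac covered almost entirely in every library. H3K4me3 calls in the window covered 3526, 3982 and 3412 bp in WT and 7253, 8119 and 7528 bp in KO, a ratio of means of 2.10 with the groups far apart. The difference of 3993 bp between the means was 2062 bp with flanks of 10 kb and 7399 bp with flanks of 50 kb. At the starts the coverage was 1971, 1791 and 1590 bp against 2437, 2187 and 2173 bp, also apart, so that most of the difference lay elsewhere in the window. None of the 3 H3K4me3 regions tested there passed, the start peak having a log2 change of −0.17 ± 0.19 (limma adjusted p = 0.572). More sequence was called, then, while the peaks shared by all libraries did not pass the test.

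The 149.0 kb H3K27ac domain that contains Zfp57 had a log2 change of 0.13 ± 0.02 (edgeR adjusted p = 0.00141), which became 0.01 (adjusted p = 0.776) with TMM factors from unadjusted counts. H3K4me1 covered 48673 bp in each WT library and 48473, 48473 and 48073 bp in KO, and its reads per kb were 107, 109 and 107 in WT and 101, 98.3 and 93.3 in KO. Both were lower in all KO libraries, and the H3K4me1 region over the first start did not pass (−0.08 ± 0.02, edgeR adjusted p = 0.0565). No H3K27me3 was called in the window in any library, and H3K9me3 in KO2 alone, over 6000 bp.

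Trim28, the corepressor that ZFP57 recruits (chr7:12999114-13031035, plus strand), lies among 6 neighbouring protein-coding genes with promoters in its window. H3K4me3 calls covered 13431, 12842 and 13999 bp in WT and 15224, 18492 and 17091 bp in KO, without overlap. At its RefSeq start the coverage overlapped (1485 to 1636 bp in WT against 1426 to 1688 bp in KO) and the start peak had a log2 change of 0.14 ± 0.17 (limma adjusted p = 0.597). The peak that passed lay downstream of the gene, 10.0 kb from the RefSeq start, at the promoter of Chmp2a (chr7:13033419-13034788). It had enrichments of 4.20, 5.10 and 5.34 in WT and 7.42, 7.96 and 8.57 in KO, and a log2 change of 0.64 ± 0.22 (limma adjusted p = 0.0434). It lost the call without any one library other than WT2, with adjusted p of up to 0.133, and with the replicate number as a block (adjusted p = 0.0506).

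H3K27me3 in the Trim28 window covered 5635, 8400 and 7800 bp in WT and 5200, 4000 and 4200 bp in KO, lower in each KO library. The region downstream of the gene that gave much of it reached the promoter of the neighbour Ube2m. It had a log2 change of −0.35 ± 0.13 and did not pass (edgeR adjusted p = 0.193), the smallest adjusted p of the 10 member regions of this mark. An H3K27ac region upstream (chr7:12956601-12991400), which reaches the promoters of Zfp324 and Zfp446, passed at 0.16 ± 0.05 (edgeR adjusted p = 0.0408). It lost the call without WT1, WT2, KO1 or KO2, with adjusted p of up to 0.139, and in 3 other settings, with up to 0.553. That over the Trim28 start had −0.01 ± 0.04 (edgeR adjusted p = 0.913).

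Of the 3 H3K4me3 peaks that fell in member windows, all lay at the promoters of neighbours, Eif3g, Kdm4b and Slc25a16. Of the 5 that rose, 1 lay over a member's start, that of Dnmt3b, 3 elsewhere in or just before Dnmt3l and Tet2, and 1 at the neighbour Chmp2a. Over the member windows the log2 ratio of KO to WT input reads per kb, relative to each library, was −0.12 to 0.07 for H3K27ac and −0.09 to 0.08 for H3K4me1. It was −0.27 to −0.01 for H3K27me3 and 0.03 to 0.39 for H3K9me3, each over 5 members.

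A list of 26 other genes of the pathway, including methyl-CG readers, demethylases and histone methyltransferases, gave 11 separated H3K4me3 windows that were higher in KO and 1 that was lower (all genes, 26.9% and 6.89%). For H3K27ac 5 were higher and 3 lower (25.9% and 9.20%), for H3K4me1 4 and 4 (12.7% and 18.1%), for H3K27me3 3 and 1 (12.9% and 7.92%), and for H3K9me3 2 and 1 (4.28% and 13.5%). At their promoters 3 of 22 H3K4me3 regions passed in limma (9.82% of all rose and 9.75% fell), 2 at Mbd3, a subunit of the NuRD complex (1.58 ± 0.22 and 0.79 ± 0.16, adjusted p = 0.000245 and 0.0029), and 1 at Zfp445, which like Zfp57 protects imprints (−0.81 ± 0.22, adjusted p = 0.0147). Of 25 H3K27ac regions 3 rose and 4 fell (8.19% and 4.56% of all), with the largest changes at Zfp445 (−0.46, edgeR adjusted p = 0.0463, lost in DESeq2 with 0.110), Ehmt1 (−0.41, edgeR adjusted p = 0.00907), a writer of H3K9 dimethylation, and Ctcf (0.40, edgeR adjusted p = 3.86e-06), the insulator protein that binds unmethylated imprinting control regions. Of 24 H3K4me1 regions 3 rose and 1 fell (4.00% and 1.64% of all), led by Kdm1b (0.54, edgeR adjusted p = 0.0429), a demethylase of H3K4, and Ctcf (0.43, edgeR adjusted p = 1.82e-07), with Uhrf2, the paralogue of Uhrf1, next (0.16, edgeR adjusted p = 0.0103). At Ctcf the input reads moved with the ChIP reads: their log2 ratio of KO to WT was 0.54 in the H3K27ac and 0.57 in the H3K4me1 region, where the SD over all regions of the mark was 0.187 and 0.213, and their part in the 2 values was not tested. Of 8 H3K27me3 promoter regions 0 passed in edgeR (3 at an unadjusted p under 0.05, 0 in DESeq2), and of 5 for H3K9me3 0 passed (3 at an unadjusted p under 0.05, 0 in DESeq2).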

How the data were processed

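Per the submitters' processing notes, the tools were Trim Galore 0.6.6, Bowtie2 2.4.4, SAMtools 1.15, deepTools 3.5.1, SICER 0.0.52 and MACS2 2.2.7.1, on GRCm38 (mm10). The study's methods name epic2, a faster form of SICER, for broad marks. They do not discuss H3K9me3. The labels name 1 catalogue number for both the H3K27ac and the H3K4me1 antibody, where the methods name another for H3K27ac. For H3K4me3 the authors deposited MACS2 peaks with a fold enrichment over input, −log10 p-values and q-values and a score. For the other marks the authors deposited regions in steps of 200 bp with a ChIP count, an input count, a p-value, an FDR, a score and a log2 ratio over input. The lists were called per library and hold nothing outside calls, so a library without a call has no level.

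All deposited calls on chromosomes 1 to 19, X and Y, which the authors made at an FDR under 0.05, were used, and calls of a mark were merged over its 6 libraries. Reads of a call that crossed a window edge were shared out by length. Regions called in all 6 libraries were tested with edgeR 4.0.16 (quasi-likelihood, TMM, with an offset for the length called in each library) or, for H3K4me3, limma 3.58.1 on centred log2 fold enrichment with no pseudocount, in R 4.3.3, each mark alone and with no covariates. An adjusted p under 0.05 was called. SEs of edgeR fold changes were approximated from the F statistic. DESeq2 1.42.0, other scalings, each library left out and the replicate number as a block were alternatives. Both fits were tested on simulated data with changes of 0.5 or 1.0 on the log2 scale. Limma recovered 5.83% of changed H3K4me3 regions at 0.5 and 76.3% at 1.0. Recovery by edgeR was lowest in H3K9me3, with 30.9% at 0.5 and 96.1% at 1.0. In the other counted marks it was 70.1% to 79.4% at 0.5 and 100% at 1.0. A region of H3K4me3 or H3K9me3 that did not pass can therefore have changed by 0.5. Windows, exact permutation tests and figures used Python 3.11.15 with pandas 2.3.3, numpy 2.4.6, scipy 1.17.1 and matplotlib 3.10.9. Background shares count all protein-coding genes whose window, promoter or start had a call, or all tested regions.

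All 10 genes and Nfkbia are named. For each mark, the 3 member regions past the threshold with the largest change are given in full, with every one at a member promoter, and of the other pathway genes at most 3 per mark. Further regions at a start, or that bear on a separated window, are given with their test. The members and the lists were chosen with earlier results of these data known. Positions are those of GENCODE M21 and promoter sequences those of RefSeq.

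Counts and fold enrichments cover sampling of reads within called regions only. Since the groups are 3 clones each, p-values measure the spread between these clones. By the labels, the WT libraries of a mark share an input sample, as do the KO libraries, and H3K27ac and H3K4me1 share theirs. A difference between the WT and KO inputs therefore does not enter that spread. The H3K4me3 lists give no input counts, so the part of the input in their enrichments was not tested.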

Additional observations from a re-analysis of the deposited data

How the results depend on the processing

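Counts of separated members or called regions mostly moved by less than 1.5 times. For H3K9me3 windows the count of 3 became 1 with an FDR under 0.01 and 1 with the same number of top-ranked calls, and 3 to 6 when single libraries were left out, with 6 without KO3. For H3K4me1 windows the count of 4 became 2 with flanks of 50 kb. At promoters, H3K4me3 went from 1 to 0 with 1000 bp on either side of the GENCODE end and to 6 at RefSeq starts, a definition added after the data were seen, where H3K4me1 went from 0 to 1. Leaving out single libraries gave 1 to 2 promoters for H3K4me3 (2 without WT1, WT3 or KO2), 1 to 2 for H3K27me3 (2 without WT1), 0 to 1 for H3K9me3 (1 without WT1), 0 to 1 for H3K27ac (1 without KO3) and 0 to 2 for H3K4me1 (1 or 2 without WT2, WT3, KO1 or KO2).

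Among tested regions, the H3K4me3 count of 8 became 5 to 7 when single libraries were left out (5 without WT3, KO1 or KO2). For H3K27me3 the count of 0 became 2 in regions of like length, falls at Dnmt3a and Tet3, the only 2 tested there, 1 with TMM on raw counts, and 0 to 1 without single libraries (1 without WT1 or KO2). For H3K4me1 the count of 2 became 6 of 18 in regions of like length, 4 with TMM on raw counts, 4 with no TMM, 4 with DESeq2 and 1 to 2 without single libraries (1 without WT1, WT2, KO1 or KO3). For H3K27ac the count stayed between 9 and 11. The H3K27ac region that contains Uhrf1 went from 0.12 to −0.0079 in regions of like length and −0.0040 with TMM on raw counts; the cause was not tested. No member region of H3K9me3 was of like length, so that setting gave no value. TMM on raw counts also moved the calls over all H3K27ac regions from 1968 up and 1097 down to 721 and 4459.

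The replicate numbers did not pair the samples: deviations of same-numbered WT and KO libraries correlated between −0.02 and 0.03. With the replicate number as a block, 8 member regions were called for H3K4me3, 10 for H3K27ac (7 up and 3 down), 2 for H3K4me1, 0 for H3K27me3 and 0 for H3K9me3. Every library correlated best with its own number for H3K4me1 only, a hint from the data and not the design. Groups of 3 limit every exact test to 0.1, and calls without counts give no level where no peak was called.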
